A study of Mus musculus with 2 samples.

Results

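The FGF ligands and receptors were followed in dissected ureters of male NMRI mouse embryos at the embryonic stage E13.5. The 10 members, 6 ligand genes (Fgf1, Fgf2, Fgf7, Fgf9, Fgf10 and Fgf18) and 4 receptor genes (Fgfr1, Fgfr2, Fgfr3 and Fgfr4), were chosen by the gene name of each array probe. They had 17 of the 39429 probes, and 9 of them were among the 21097 genes tested. There were 2 two-colour arrays, and on each a Tbx2-GOF extract was hybridised together with a control extract, with the dyes exchanged between the arrays. The Tbx2-GOF embryos had the genotype Tbx18(cre/+);Hprt(Tbx2/Y), in which one Tbx18 allele provides cre, which acts on the Tbx2 allele placed in Hprt, a gene on the X chromosome. The control embryos were Tbx18(+/+);Hprt(Tbx2/Y), so the Tbx2 allele was common to both genotypes and the groups differed in cre and also in 1 copy of Tbx18. Tbx2 encodes a T-box transcription factor that represses many of its targets, and GOF stands for gain of function. The cre is limited to cells with a history of Tbx18 expression, whereas the RNA came from whole ureters, so fewer cells of a type and less RNA per cell cannot be told apart.

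Fibroblast growth factors are secreted proteins that bind receptor tyrosine kinases together with heparan sulfate. Occupied receptors signal through the adaptor FRS2 and the RAS and MAP kinase cascade to ETV transcription factors, and Sprouty proteins and the phosphatase DUSP6 hold the signal back. In urinary organs, ligands made by mesenchyme and stroma, such as FGF7 and FGF10, act on the epithelial splice form of FGFR2 and support growth of the collecting system. FGF9 and its relative FGF20 help keep nephron progenitors in the neighbouring kidney.

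Of the 9 members tested, 1 fell in Tbx2-GOF ureters, Fgf7, and 0 rose. Over all genes 0.280% fell and 0.360% rose, 0.640% together. That Fgf7 passes was known from earlier results of these data, so its call is no independent evidence. A gene is said to have risen or fallen where limma's p, adjusted over all genes by Benjamini and Hochberg, was under 0.05. With an unadjusted p under 0.05 there were 3 members, Fgf7, Fgf18 and Fgf10, against 9.34% of all genes. The ligands were lower (Fgf7 and Fgf18), higher (Fgf10) or of opposite sign on the arrays (Fgf1 and Fgf9). In its brightest probe, none of the 4 receptors had the same sign on both arrays. On both arrays 2 members were lower and 1 was higher, against 25.1% and 26.1% of all genes. By at least 1.5-fold on both arrays 1 member, Fgf7, was lower (0.545% of all genes) and 0 were higher (0.825%). A ratio is the log2 of Tbx2-GOF divided by control, and means are given ± SD with n = 2 arrays throughout. With 2 arrays an exact sign-flip test of a single gene cannot go below p = 0.50. Nothing in the labels tells if different embryos supplied the arrays, and a p-value here therefore rests on the array-to-array spread alone, which may be technical.

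The 250 bases before the annotated start of the ligands that were lower or higher on both arrays are shown first, since TBX2 is a DNA-binding repressor. Each is written 5′ to 3′ on the gene's strand, from RefSeq on GRCm38.p6: Fgf7 at chr2:126034408-126034657 (plus strand), Fgf18 at chr11:33147401-33147650 (minus strand) and Fgf10 at chr13:118714449-118714698 (plus strand).
Fgf7: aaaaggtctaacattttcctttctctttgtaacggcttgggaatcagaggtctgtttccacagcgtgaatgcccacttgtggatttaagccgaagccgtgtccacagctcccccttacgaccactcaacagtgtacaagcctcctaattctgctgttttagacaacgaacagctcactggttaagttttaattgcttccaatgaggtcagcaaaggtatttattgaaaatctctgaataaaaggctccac
Fgf18: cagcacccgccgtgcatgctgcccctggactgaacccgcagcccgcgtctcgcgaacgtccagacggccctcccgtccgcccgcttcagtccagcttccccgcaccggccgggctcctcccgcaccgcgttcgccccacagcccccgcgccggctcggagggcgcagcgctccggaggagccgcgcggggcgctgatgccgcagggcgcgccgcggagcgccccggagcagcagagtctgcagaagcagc
Fgf10: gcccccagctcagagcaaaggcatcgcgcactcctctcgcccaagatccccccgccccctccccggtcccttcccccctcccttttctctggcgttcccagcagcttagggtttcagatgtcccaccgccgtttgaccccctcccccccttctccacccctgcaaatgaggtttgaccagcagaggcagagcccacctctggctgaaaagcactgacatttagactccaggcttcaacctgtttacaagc
No base is in capitals, because the T-box core motif GGTGTGA was not found on either strand (its reverse complement is TCACACC) in any of the 3. Nor was it found in the other upstream windows given for 8 of the 10 members, 9 windows in all. It occurs in 3.33% of the 32851 windows of the same length in the table, so 9 windows without it say only that these letters are absent from these bases. The windows differ in base composition. The bases G and C make up 43.6% of the Fgf7 window, 77.2% of the Fgf18 window and 61.2% of the Fgf10 window, against a median of 52.4% over the table. The Fgf7 window holds 6 CpG dinucleotides and the Fgf18 window 37.

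Fgf7, keratinocyte growth factor, was measured by 1 probe (mm9, chromosome 2, 125916134 to 125916193), above background in both channels of both arrays. Its normalized log2 intensity was 10.82 and 10.93 in the Tbx2-GOF channels of arrays 1 and 2 and 11.60 and 12.05 in the control channels. Both Tbx2-GOF values lay below both control values. The log2 ratio was -0.78 on array 1 and -1.12 on array 2, a mean of -0.95 ± 0.24 or a level 1.94-fold lower (SE 0.14, 95% interval -1.29 to -0.62). The adjusted p from limma was 0.0449, close to the threshold. Over the 13 settings with a test, the one reported included, the mean stayed between -1.01 and -0.94, and the adjusted p ran from 0.0131 to 0.464. Fgf7 passed in 7 of these settings. Its call was lost with normexp offset 0, with the processed signals of the software, with median centring, with every probe tested by itself, with the series value table and with separate channels.

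Fgf18, of the same subfamily as Fgf8, was lower on both arrays too, without passing the test. In its brighter probe (mm9, chromosome 11, 33017440 to 33017499, minus strand) the log2 intensity was 11.62 and 11.79 in Tbx2-GOF and 12.00 and 12.63 in control. The genotypes did not overlap, and the control of array 2 was the highest. The log2 ratios were -0.37 and -0.84, with a mean of -0.61 ± 0.33 (95% interval -0.97 to -0.25, limma's adjusted p = 0.182). A second probe, 33017474 to 33017533, was at -0.37 and -0.86, with a mean of -0.62 ± 0.35. These probes are not independent, since they share 26 bases, printed here in lower case on the gene's strand.
Shared by the Fgf18 probes: acgaggaaactgcgagaaaccaaagt

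Fgf10, a ligand of the same receptor form as Fgf7, was higher on both arrays, without passing the test. Its probe (mm9, chromosome 13, 119580365 to 119580424) had 10 spots on each array. The log2 intensity was 9.45 and 9.34 in Tbx2-GOF and 9.23 and 8.89 in control, again without overlap. The log2 ratio was 0.21 on array 1 and 0.45 on array 2, a mean of 0.33 ± 0.17 (95% interval 0.01 to 0.65, limma's adjusted p = 0.497). Single spots ranged from 0.09 to 0.36 on array 1 and from 0.31 to 0.54 on array 2, so every spot was above 0. Spots repeat the same extract and are no further replicates. Fgf7 and Fgf10 therefore had ratios of opposite sign on both arrays; the difference between them was not tested.

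**Figure D1:**
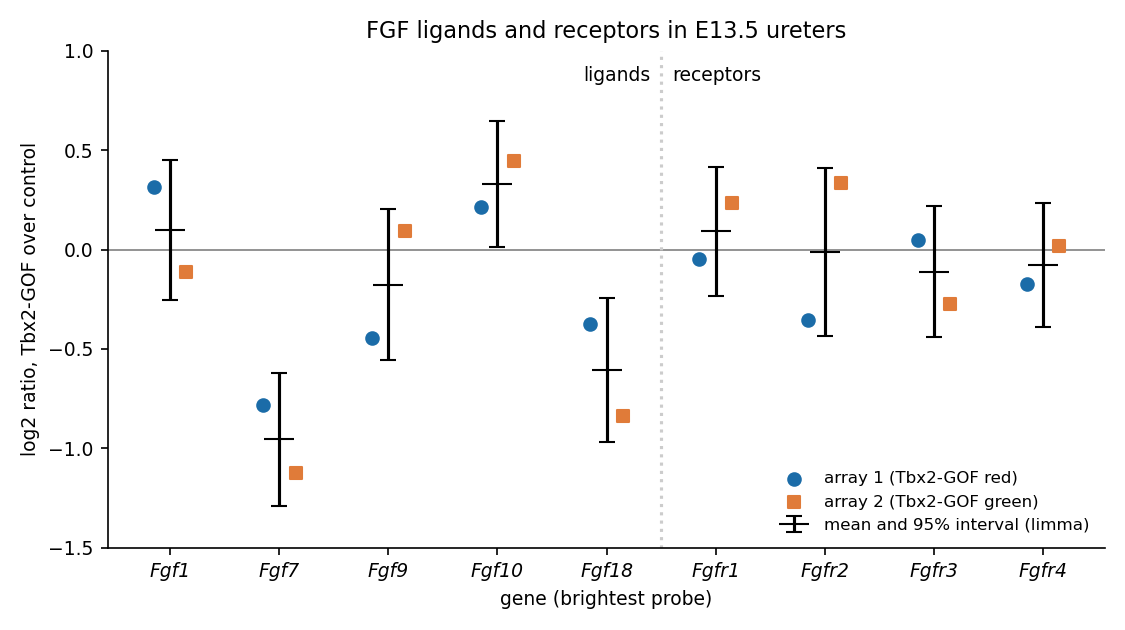
Log2 ratio of Tbx2-GOF over control (vertical axis) of the 9 tested FGF members (horizontal axis, brightest probe). Circles are array 1, squares array 2, bars the mean with limma's 95% interval. Fgf7 and Fgf18 lie below 0 on both arrays and Fgf10 above it, while the arrays fall on opposite sides of 0 for the other 6.

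Fgf9, a ligand made largely by epithelia and mesothelium, had log2 intensities of 10.78 and 10.73 in Tbx2-GOF and 11.22 and 10.64 in control (mm9, chromosome 14, 58728897 to 58728956). The Tbx2-GOF values lay between the control values, and the log2 ratios were -0.45 and 0.09 (mean -0.18 ± 0.38, 95% interval -0.56 to 0.20, adjusted p = 0.948 by limma). Fgf1, which binds all FGF receptors, was at 9.22 and 9.33 in Tbx2-GOF and at 8.91 and 9.45 in control. Its log2 ratios of 0.31 and -0.11 again had opposite signs (mean 0.10 ± 0.30, 95% interval -0.25 to 0.45, adjusted p = 0.9998 by limma). A second Fgf1 probe was not well above background in any channel. Neither was the Fgf2 probe, whose genomic span on chromosome 3 (mm9, 37247934 to 37295153) exceeds its 60 bases and so bridges parts of the transcript. Fgf2, basic FGF, is therefore the 1 member without a ratio, and no difference in it could be measured.

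The receptors did not pass the test, and the brightest probes of all 4 had opposite signs on the arrays, as had 48.8% of all genes. Fgfr1, the main receptor of mesenchymal cells, had log2 intensities of 14.75 and 14.64 in Tbx2-GOF and 14.80 and 14.41 in control (mm9, chromosome 8, 26685072 to 26685131). Its log2 ratio was -0.05 and 0.23, a mean of 0.09 ± 0.20. The other Fgfr1 probes had means of -0.04 ± 0.02 and 0.13 ± 0.29. The first of these was lower on both arrays, at -0.03 and -0.06. Fgfr2, whose epithelial form receives FGF7 and FGF10, was at 12.50 and 12.47 in Tbx2-GOF and at 12.85 and 12.14 in control (mm9, chromosome 7, 137307473 to 137307532, minus strand). Both Tbx2-GOF values lay between the control values, which were 0.71 apart. The Fgfr2 ratios of -0.35 and 0.33 gave a mean of -0.01 ± 0.49. A probe sharing 42 bases with it, with 10 spots an array, had a mean of -0.06 ± 0.42.

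Fgfr3 had log2 intensities of 11.00 and 10.88 in Tbx2-GOF and 10.95 and 11.15 in control (mm9, chromosome 5, 34079649 to 34079708). Its ratios were 0.05 and -0.27, a mean of -0.11 ± 0.23. A dimmer probe that spans more than its own length on the genome, 34077856 to 34078090, had the opposite signs, -0.24 and 0.20, with a mean of -0.02 ± 0.31. Fgfr4, a receptor found in skeletal muscle and liver among other tissues, was at 10.49 and 10.59 in Tbx2-GOF and at 10.66 and 10.57 in control (mm9, chromosome 13, 55270033 to 55270092). Its ratios were -0.17 and 0.02, a mean of -0.08 ± 0.13, and its other probe had a mean of -0.02 ± 0.19. The 95% intervals of the receptors were -0.23 to 0.42 for Fgfr1, -0.43 to 0.41 for Fgfr2, -0.44 to 0.22 for Fgfr3 and -0.39 to 0.23 for Fgfr4. A difference of up to about those sizes in either direction was not detectable with these arrays.

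**Figure D2:**
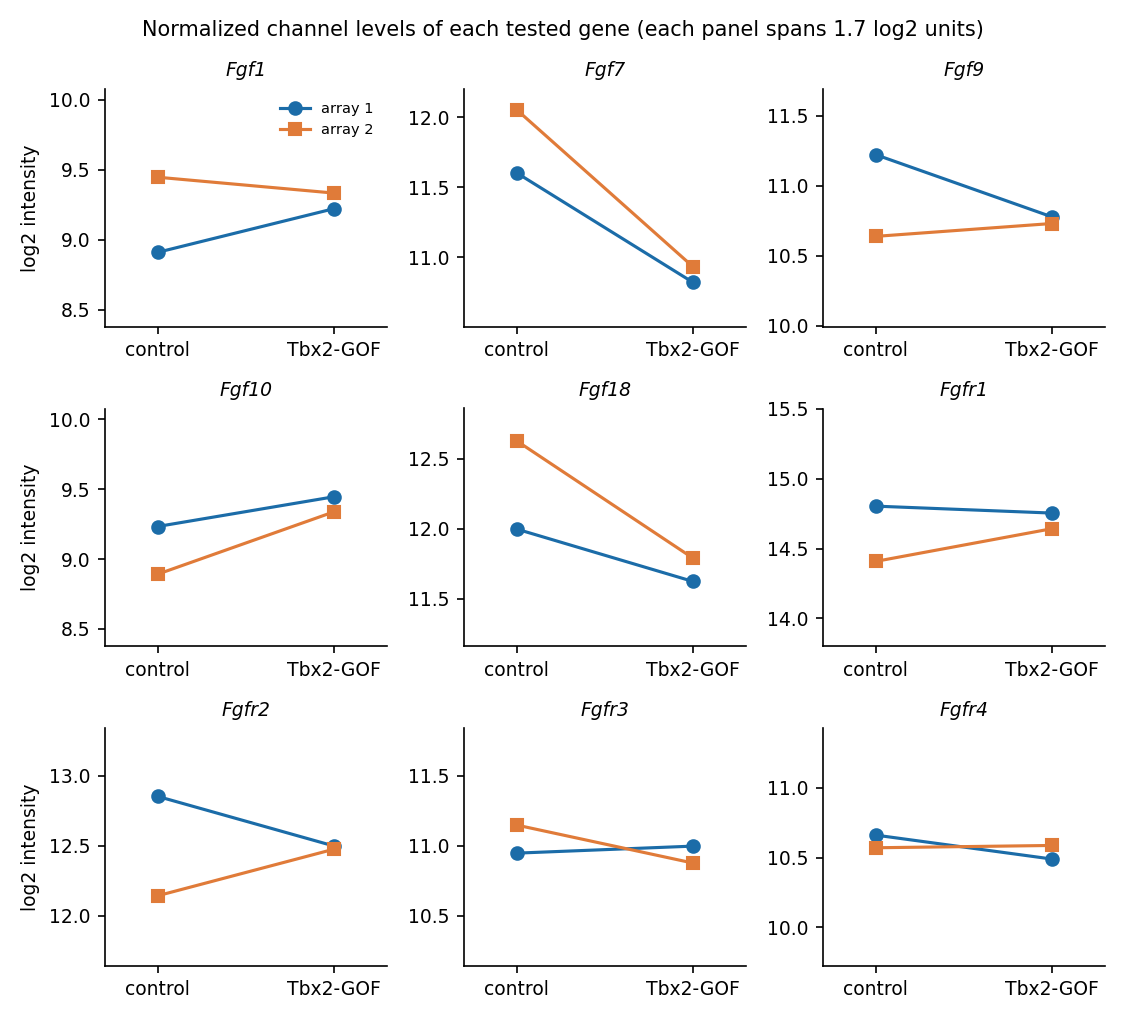
Normalized log2 intensity (vertical axis, 1.7 log2 units in each panel) of control and Tbx2-GOF (horizontal axis) for the 9 tested members, with circles for array 1 and squares for array 2, lines joining the channels of an array. The Tbx2-GOF points of the arrays lie close together in every panel, at most 0.17 apart, and the control points lie farther apart in all panels but that of Fgfr4. Levels of different genes come from different probes and are not comparable.

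In their levels, 2 members had both Tbx2-GOF values below both control values, 1 had both above, and the other 6 overlapped. Over all genes 16.3% were fully below and 18.2% fully above, 34.5% together. The control channels were the more variable part of these ratios. Between the arrays the Tbx2-GOF level of a member differed by 0.02 to 0.17 and the control level by 0.09 to 0.71, and the control differed more in 8 of the 9. For Fgf7 the distance was 0.11 in Tbx2-GOF and 0.45 in control. This was not particular to these genes, since the control level differed more in 69.3% of all genes, with a median distance of 0.19 against 0.10 for Tbx2-GOF. Each genotype carried a different dye on each array, so array, dye and extract cannot be told apart here.

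Of the 9 receptor probes above background, 7 were lower in Tbx2-GOF on array 1 and higher on array 2, a pattern held by 24.4% of all genes. Probes of 1 gene, and above all those of Fgfr2, share transcript or sequence and do not count separately. With the dyes not turned, the red over green ratio of the brightest Fgfr2 probe was -0.35 on array 1 and -0.33 on array 2. The same ratio of the Fgf7 probe was -0.78 and 1.12. The dye exchange thus turned the sign for Fgf7 and left it as it was for Fgfr2.

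**Figure D3:**
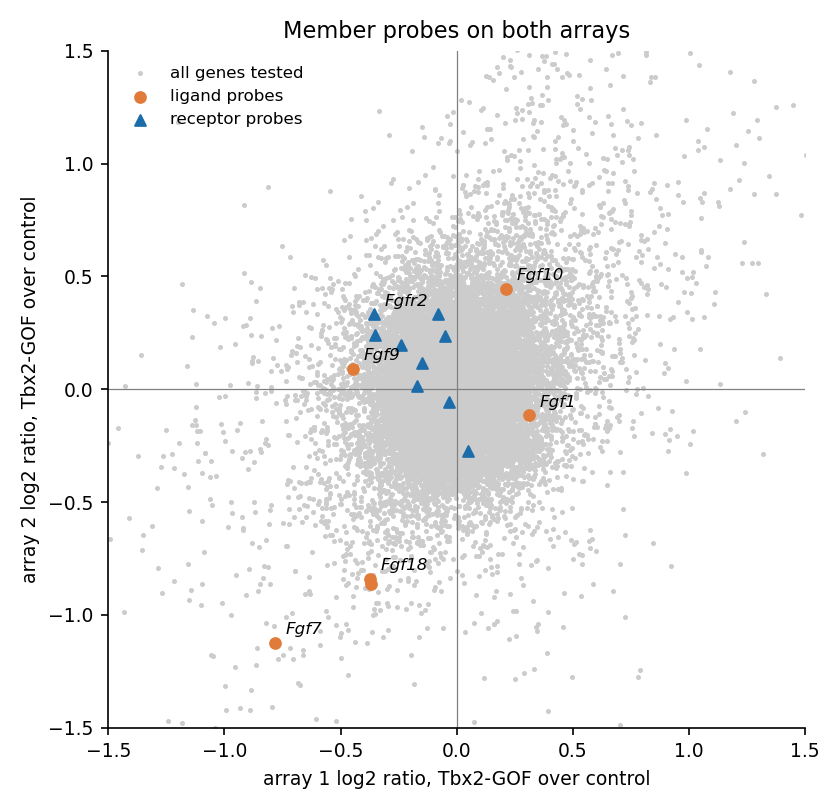
Log2 ratio of Tbx2-GOF over control on array 1 (horizontal axis) and array 2 (vertical axis), with grey dots for all genes tested, circles for ligand probes and triangles for receptor probes above background. Fgf7 and both Fgf18 probes lie in the lower left and Fgf10 in the upper right, while 7 of the 9 receptor probes lie in the upper left. Beyond the plot limit of 1.5 lie 157 genes.

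Among 12 other secreted ligands, 8 were kept, and 1 passed the test, Fgf20. Limma's unadjusted p was under 0.05 for 6 of the 8, Fgf20 included, against 9.34% of all genes. Fgf20, Fgf15 and Fgf22, all among these 6, were kept only through their Tbx2-GOF channels, so this count is no support for a change. Fgf20, a ligand of nephron progenitors related to Fgf9, was kept only through its Tbx2-GOF channels, so its place among the genes past the test is no support for a change in these ligands. Its measured log2 ratios were 1.28 and 0.86 (mean 1.07 ± 0.29, limma's adjusted p = 0.0391). Control RNA gave no signal well above background in either orientation, so the size of the difference is uncertain. A bound was computed with the control, on each array, at the lowest level of any probe well above background or at its own level if that is higher. It came to 2.10-fold higher in Tbx2-GOF, the same as the measured mean of the brightest probe. As array 2 and the mean of its kept probes gave less, 2.10-fold is no firm minimum. The log2 ratio of Fgf20 was 0.95 with the mean of its kept probes and 2.88 with the processed signals of the software. It passed in 8 of the 12 settings that kept it. A strict filter, the 13th setting, left it out. Fgf5 was lower on both arrays, at -0.64 and -0.89 (adjusted p = 0.0699). It passed in 3 of 13 settings, with scaling between arrays, with no filter on dim probes and with the mean of each gene's probes (lowest adjusted p = 0.0274). Fgf15 was higher, at 0.38 and 0.76 (mean 0.57 ± 0.27, adjusted p = 0.185). Its control was well above background on 1 of the 2 arrays, and its mean ran from 0.55 to 1.68 over 12 settings without passing in any. Of closer relatives of the members, chosen after their values were seen, Fgf8 was at 0.54 and 0.58 (limma's adjusted p = 0.140). Fgf22, which did not pass either, was at 0.38 and 0.32. The control signal of Fgf22 was well above background on 1 of the 2 arrays, so it was kept only through Tbx2-GOF. Also named after their values were seen, Fgf6 was lower, at -0.43 and -0.52, as was Fgf21, at -0.07 and -0.68, and neither passed the test. On both arrays 4 of the 8 were higher and 3 lower, against 26.1% and 25.1% of all genes. The median of the 8 was 0.16, against array medians of all genes of 0.0021 and 0.0029. Among the 4 higher genes, Fgf20, Fgf15 and Fgf22 entered the 8 only through their Tbx2-GOF channels. Neither the count nor the median is therefore support for a rise of these ligands. The genes of the intracellular FGFs, which do not signal through FGF receptors, had 4 of 4 members measured and 0 past limma's test. Of these, 3 had an unadjusted p under 0.05, against 9.34% of all genes. Fgf14 was at -0.52 and -0.92 on the arrays (mean -0.72 ± 0.28). Its mean ran from -0.41 with the mean of its probes to -1.05 with processed signals, and it passed with scaling between arrays (adjusted p = 0.0443). Fgf13 was at 0.21 and 0.83 (mean 0.52 ± 0.44), most of it from array 2, and Fgf12 at 0.44 and 0.27.

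Genes that respond to FGF signalling or feed back on it did not move one way. Of the 13 in the list 12 were measured, 1 fell, 0 rose and the median was 0.03. Limma's unadjusted p was under 0.05 for 4 of them, against 9.34% of all genes. The gene that fell was Shisa2, which keeps FGF and WNT receptors from the cell surface, with ratios of -0.86 and -1.15 (SD 0.20, 95% interval -1.33 to -0.68, limma's adjusted p = 0.0379). Its change was known from earlier results of these data when the list was made, so its direction is no independent evidence. It passed in 8 of 13 settings. Etv4, a transcription factor switched on by FGF and GDNF signals, was at 0.67 and 0.79 (mean 0.73 ± 0.08, adjusted p = 0.0698) and passed with scaling between arrays and with no filter on dim probes. Spry1, an inhibitor of receptor tyrosine kinases, was at 0.54 and 0.18 (adjusted p = 0.477). Others named after their values were seen were Dusp6 at 0.33, Etv5 at 0.10, Il17rd at 0.04, Spry2 at 0.02 and Etv1 at -0.31. Spry4 had no probe well above background.

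The remaining parts of the pathway held 1 gene past the test. Among 29 genes for heparan sulfate chains and the proteins that carry them, 27 were measured, 1 rose and 0 fell, with a median of 0.06. Over all genes 0.360% rose and 0.280% fell. Limma's unadjusted p was under 0.05 for 3 of the 27, against 9.34% of all genes. Ndst3, an enzyme that modifies heparan sulfate, rose by 1.07 ± 0.01 (limma's adjusted p = 0.0277) and passed in 9 of 13 settings. Hpse, heparanase, was at -0.47 and -1.27 (adjusted p = 0.136) and the sulfotransferase gene Hs6st2 at -0.34 ± 0.08 (0.424). Of 9 co-receptor and FGF-binding protein genes 7 were measured and 0 passed limma's test. With an unadjusted p under 0.05 there was 1, against 9.34% of all genes. Flrt2, a membrane protein that can bind FGF receptors, was at 0.62 and 0.41, Flrt3 at -0.44 and -0.19 and Flrt1 at -0.29 and -0.14. Of 18 genes for signal transducers 17 were measured and 0 passed, also with an unadjusted p under 0.05. The largest means of one sign each rested mostly on 1 array. The adaptor gene Gab1 was at -0.53 and -0.03, the adaptor gene Grb2 at 0.43 and 0.03, and the kinase gene Map2k1 at 0.05 and 0.37.

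**Figure D4:**
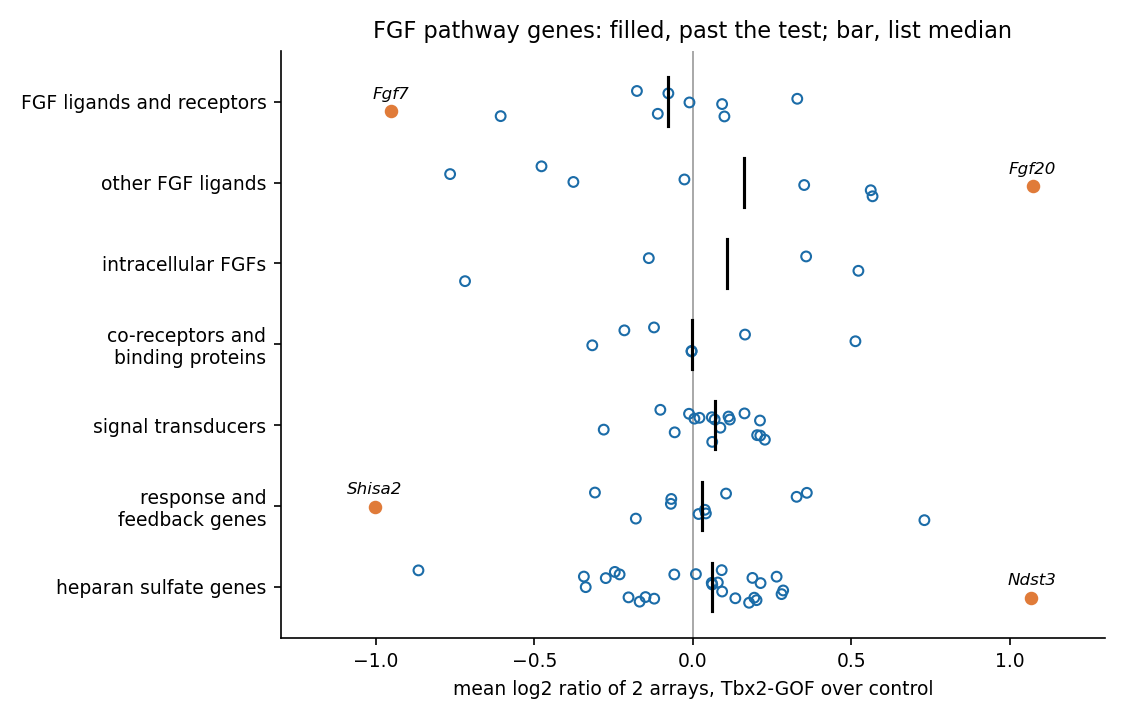
Mean log2 ratio of Tbx2-GOF over control (horizontal axis) for the genes of 7 groups of the FGF pathway (rows, spread vertically for visibility). Filled points passed the test, open points did not, and black bars are medians. The filled points are Fgf7, Fgf20, Shisa2 and Ndst3, of which Fgf20 was not well above background in control.

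Markers of other cells moved beside these genes, and their part in the results was not tested. Of 12 stroma and fibroblast markers, all measured, Foxd1, Lum and Postn fell and 0 rose, and the list's medians on arrays 1 and 2 were -0.31 and -0.41. On both arrays 7 of them were lower and 2 higher, Aldh1a2 at 0.54 and 0.88 and Pdgfrb at 0.46 and 0.30. Fgf7 is itself a product of stromal cells, and whether these markers bear on its fall was not tested. The summed linear intensity of the list was 899491 and 813065 in Tbx2-GOF and 906741 and 1007010 in control, so it was 0.99 and 0.81 of control on the 2 arrays. Of 10 nephron progenitor markers Six2 and Gdnf rose and 0 fell, and the median was 0.15. On both arrays 5 were higher and 3 lower. The lower ones were Crym at -0.28 and -0.71, Sall1 at -0.11 and -0.81 and Osr1 at -0.28 and -0.16. The summed intensity was 62257 and 59602 in Tbx2-GOF and 54776 and 55827 in control. Of 10 skeletal muscle markers Acta1, Chrna1, Myh8 and Tnnt3 fell and 0 rose, with a summed intensity of 6679 and 17548 in Tbx2-GOF and 28698 and 33436 in control. Of 11 neural and Schwann markers Fabp7 and Th rose and 0 fell, with 102691 and 106824 against 64334 and 39064. No marker of these 4 lists was below background in both genotypes.

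Of 10 markers of liver and blood plasma 9 were measured, and Afp, Alb, Ahsg, Serpina1a and Ttr fell and 0 rose, with a median of -1.11. In Tbx2-GOF, Ahsg and Ttr were well above background on 1 array and Apoa1 and Fgb on 0. These genes were kept only through their control channels, so their place among the measured genes is no support for a fall. The log2 ratio of Afp, alpha-fetoprotein, was -2.75 and -3.15, and its p ranked 1 over all genes. The summed intensity was 6147 and 6324 in Tbx2-GOF and 8879 and 11480 in control, and Fga was below background. Of 9 adrenal and gonad markers 7 were measured. Akr1b7 rose, at 3.69 and 2.85, and Lhx9 fell, at -0.91 on both arrays. Lhx9 was well above background in Tbx2-GOF on 1 array and so was kept only through control. Amh was below background. The summed intensity of the list was 10064 and 8333 in Tbx2-GOF and 2491 and 2742 in control. The median log2 ratio was 0.0022, with Cyp11a1 at -0.12, Cyp17a1 at 0.06, Gata4 at -0.26, Nr5a1 at 0.0022 and Star at 0.18. None of these passed the test, so the list did not move as its sum did. Of 7 markers each of endothelium, erythroid cells and macrophages, all measured, 0 passed limma's test, with medians of 0.29, -0.41 and 0.14. With an unadjusted p under 0.05 there were 3, 4 and 0, against 9.34% of all genes.

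The markers of the labelled tissue were present: all 15 genes of ureteric epithelium and 10 of 11 of ureteric mesenchyme, Tbx18 among them, were above background, and Myocd was not. In epithelium Upk3a, a uroplakin gene, fell, at -0.85 and -0.86 (limma's adjusted p = 0.0450), and 0 rose. The median of the epithelial list was 0.04, and on both arrays 5 of its 15 genes were higher and 4 lower. Upk2, another uroplakin gene, was higher on both arrays without passing the test (mean 0.84 ± 0.31, limma's adjusted p = 0.0715). Tbx2 itself was at 0.04 on array 1 and 0.56 on array 2 (limma's adjusted p = 0.711). Whether its probe lies in the part carried by the Hprt allele is not known here, so it checks nothing about the labels. Tbx18 was at -0.31 and -0.59 (adjusted p = 0.266), lower on both arrays in the genotype with 1 copy fewer. Hprt, chosen after its values were seen, was at 1.27 and 0.56 (adjusted p = 0.0989). Where the probes of Tbx18 and Hprt lie relative to the changed parts of these alleles is not known here either. Signal well above background was found for 66.7% to 72.7% of probes in Tbx2-GOF and 66.4% to 70.5% in control. The number of arrays limits the precision.

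**Figure D5:**
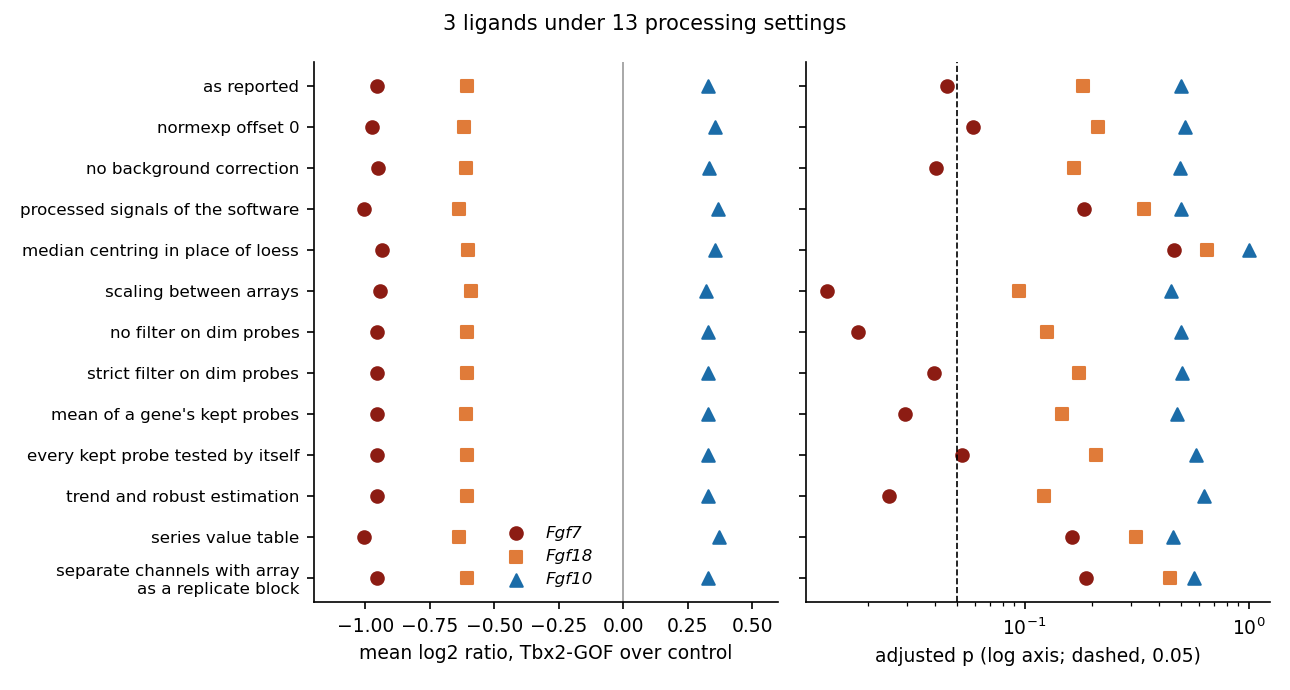
Mean log2 ratio (left, horizontal axis) and limma's adjusted p (right, log axis, dashed line at 0.05) of Fgf7 (circles), Fgf18 (squares) and Fgf10 (triangles) under 13 processing settings (rows). The ratios hardly move, from -1.01 to -0.94 for Fgf7, whereas its adjusted p lies on both sides of the line; Fgf18 and Fgf10 are right of it in every setting.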

How the data were processed

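Amplified RNA carried AlexaFluor647 (red) or AlexaFluor555 (green), per the labels' protocols; Tbx2-GOF was red on array 1 and green on array 2. The submitters' processing notes name Agilent Feature Extraction 10.7.3.1. Spot signals and local backgrounds are intensity values as scanned, per the file headers. Per the file headers, the software also gives processed intensity signals, and a LogRatio on the log10 scale with red in the numerator. The deposited series table holds a signed linear fold ratio. Its scale, centring and direction are unstated; the median is 1 on both arrays, and 99.6% of probes above background matched the software's ratio, turned to Tbx2-GOF over control, within 0.01 (log10).

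With limma 3.58.1 in R 4.3.3, normexp (offset 50) and loess within arrays (span 0.3, control and flagged spots at weight 0) gave log2 ratios. Probes with Tbx2-GOF or control well above background on both arrays were kept, 26471 of 39429; the brightest stood for each gene. RefSeq accessions of GRCm38.p6 updated the names of 67.0% of probes. lmFit and eBayes tested 21097 genes (1 residual and 6.36 prior degrees of freedom), two-sided. Channel levels are after Aquantile normalization. The script was tested on simulated data. Probe coordinates are on mm9 as deposited; no genome was used, so exon and UTR positions are not given, and whole probe sequences are not printed.

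Members and lists were chosen with earlier results of these data known. Named genes were all members, other pathway genes past the test and the 3 largest means of the same sign on both arrays in each list. Markers past the test were named too, and others are marked. Markers given beside those past the test, to show the rest of a list, were named after their values were seen. There were 14 alternatives, 12 with a test.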

Additional observations from a re-analysis of the deposited data

How the results depend on the processing

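Calls by limma (adjusted p under 0.05) numbered 0 under median centring, 0 for processed signals and 0 for the values of the series table (1219, 2055 and 2060 at an unadjusted p under 0.05), and with separate channels and array as a random replicate block they numbered 4, against 135 as reported. Scaling between arrays called 313, no filter on dim probes 276 and averaging the probes of each gene 211. Members past the test numbered 0 in those 4 settings with fewest calls, with offset 0 and with every probe tested by itself (2 or 3 at an unadjusted p under 0.05), and 1 in the other 6. Response genes past it numbered 0 with offset 0 and in the same 4 settings (2 to 4 at an unadjusted p under 0.05), and 2 with scaling and with no filter, against 1. Fgf7 lost its call at -0.98 (adjusted p = 0.0587) with offset 0, -1.01 with processed signals and the series table (0.184 and 0.163), -0.94 with median centring (0.464) and -0.95 with probes tested singly (0.0528) and with separate channels (0.187); on single arrays, with no test, it ranged from -1.12 to -0.78. The Fgfr2 mean turned from -0.01 to 0.0028 with median centring, and no other member's mean over both arrays changed sign in the 12 alternatives with a test. No depth limit applies to arrays beyond the dim probes of Fgf1 and Fgf2. The cause of these differences was not tested. Alternatives for pathway genes that are no members were added after seeing the data.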
